A study of Mus musculus with 20 samples.

Results

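The genes described here are those by which heart muscle takes up and burns ketone bodies and breaks down leucine, isoleucine and valine, the branched-chain amino acids. They were picked by gene name, as a set of 30, with no threshold on any measured value, although earlier results of these data were known when the set was drawn up. All 30 are among the 19985 genes listed at 24 weeks and the 19872 listed at 2 weeks, and all 30 passed the filter on low values at both times. The samples were bulk left ventricle RNA of Control mice and of dnOGAh-Tg mice, which make a dominant-negative form of O-GlcNAcase (gene Oga) in the heart when fed doxycycline. Both groups were sampled after 2 and after 24 weeks of induction, with 5 libraries in each of the 4 groups. O-GlcNAcase is the enzyme that takes the sugar O-GlcNAc off proteins, and the series title sets the comparison in the study of raised protein O-GlcNAc in cardiomyocytes, hypertrophy and mitochondrial function. The labels give no age, sex or strain, do not name the promoter that drives the transgene, do not say which alleles the Control mice carried, and do not say whether libraries of 1 group came from separate mice. The p-values therefore measure the spread between these libraries.

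Ketone bodies made by the liver enter heart cells through monocarboxylate transporters and are oxidized in mitochondria, where 3-oxoacid CoA-transferase (Oxct1) activates acetoacetate. Branched-chain amino acids first lose their amino group to a transaminase, and the resulting ketoacids are then committed to breakdown by a single mitochondrial complex, the branched-chain ketoacid dehydrogenase. A kinase (Bckdk) switches this complex off by phosphorylation and a phosphatase (Ppm1k) switches it on. Beyond the complex, the leucine arm ends in acetyl-CoA and acetoacetate, while the valine and isoleucine arms feed propionyl-CoA, which is carboxylated and rearranged to succinyl-CoA.

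Of the 30 genes, 25 matched at least 1 of the RefSeq promoters of build GRCm38.p6, which run from 250 bases before a gene's start to 50 bases after it, and these 25 had 32 promoters. The 4 below are shown because their products work in pairs that are compared as ratios in a later paragraph, the kinase Bckdk with the phosphatase Ppm1k that opposes it, and Mccc1 with Mccc2, the subunits of one carboxylase. Capitals mark every match, on either strand, to GGGCGG (the GC box), CCAAT and CACGTG (the E-box), so that ATTGG and CCGCCC are the same words read on the other strand. In Mccc2 the forward and the reverse match of CCAAT overlap in CCAATTGG. The Bckdk window is chr7:127903823-127904122 on the plus strand, that of Ppm1k chr6:57535438-57535737 on the minus strand, that of Mccc1 chr3:36000629-36000928 on the minus strand and that of Mccc2 chr13:100015590-100015889 on the minus strand, all printed 5′ to 3′ on the gene's own strand.
Bckdk: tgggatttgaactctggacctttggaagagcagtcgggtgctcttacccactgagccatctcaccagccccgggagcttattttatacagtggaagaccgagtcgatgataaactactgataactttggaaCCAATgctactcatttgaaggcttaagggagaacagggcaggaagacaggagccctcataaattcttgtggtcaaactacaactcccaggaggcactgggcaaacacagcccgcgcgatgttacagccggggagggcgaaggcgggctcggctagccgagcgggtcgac
Ppm1k: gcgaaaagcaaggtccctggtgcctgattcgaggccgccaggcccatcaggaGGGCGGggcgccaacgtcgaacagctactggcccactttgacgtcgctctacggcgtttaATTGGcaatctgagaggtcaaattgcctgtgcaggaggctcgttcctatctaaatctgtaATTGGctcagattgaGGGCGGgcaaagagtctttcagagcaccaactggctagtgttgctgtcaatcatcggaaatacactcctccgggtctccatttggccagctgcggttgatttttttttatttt
Mccc1: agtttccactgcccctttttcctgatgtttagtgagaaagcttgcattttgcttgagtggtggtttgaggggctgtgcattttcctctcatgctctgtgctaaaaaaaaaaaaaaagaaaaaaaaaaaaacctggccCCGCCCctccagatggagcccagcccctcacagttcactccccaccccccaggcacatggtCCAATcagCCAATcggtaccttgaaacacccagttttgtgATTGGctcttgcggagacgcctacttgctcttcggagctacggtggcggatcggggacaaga
Mccc2: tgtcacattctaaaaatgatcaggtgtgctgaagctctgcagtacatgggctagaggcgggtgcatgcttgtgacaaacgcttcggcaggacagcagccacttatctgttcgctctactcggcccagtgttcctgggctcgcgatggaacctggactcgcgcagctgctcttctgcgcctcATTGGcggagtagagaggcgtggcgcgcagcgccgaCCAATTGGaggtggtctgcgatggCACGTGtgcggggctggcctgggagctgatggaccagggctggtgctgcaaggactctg
CCAAT was found in 56.2% of the 32 promoters of these genes, against 37.4% of all 32851 promoters and 37.0% of those of tested genes. The GC box was in 53.1% of them, above the 35.7% of all promoters and below the 60.9% of the promoters of tested genes. CACGTG was found in Mccc2 and Slc16a1 alone, which is 6.25% of the 32 promoters against 7.15% of all and 9.71% of those of tested genes. No match was found among the 32 for TCAAGGTCA (ERR), TGATGCAA (ATF4) or the DR1, NRF1 and YY1 words, which are in 0.423%, 0.895%, 0.0396%, 0.971% and 0.633% of all promoters. A match says only that these letters lie in this window.

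Library depth, summed over the listed genes, lay between 22804712 and 50996272 reads. The deepest library was dnOGAh-Tg 1 of the 2-week group, and the next, dnOGAh-Tg 4 at 24 weeks, held 37844796 reads. Oga, whose reads can come from the mouse gene and, as far as it shares sequence, from the transgene, lay between 21661 and 56078 normalized counts in the dnOGAh-Tg libraries at 24 weeks and between 2521 and 3721 in Control. At 2 weeks the Control libraries lay between 2565 and 4269. The 2 dnOGAh-Tg libraries of that time whose titles carry the code F11 lay at 8608 and 6406 (2.43 and 1.81 times the Control mean), whereas those with the codes F13 and F14 lay at 56985, 61206 and 42127. The labels do not explain the codes. At 24 weeks each code is held by 1 Control and 1 dnOGAh-Tg library with the same replicate number. The 2-week results are given with and without these 2 libraries. The cardiomyocyte markers, all 10 of 10 in the table, were abundant, with a summed level of 1995733 to 2558032 in Control and 1433073 to 1929086 in dnOGAh-Tg at 24 weeks. At the same time the 8 fibroblast markers summed to 40233 to 58197 in Control and 57828 to 85478 in dnOGAh-Tg, the 7 endothelial markers to 25326 to 29576 and 17387 to 23850, and the 6 atrial markers to 4661 to 19411 and 148576 to 307484. Summed levels of the 6 mural, 4 erythroid and 7 listed of 8 adipocyte markers ran from 30240 to 40009 against 19783 to 31311, from 19556 to 34288 against 12036 to 20243, and from 13817 to 20328 against 10537 to 14593. The sums of the 8 macrophage markers (5093 to 11185 against 7594 to 13294), 4 Schwann cell, 6 lymphocyte and 4 listed of 5 neutrophil markers overlapped between groups. So did the fibroblast, mural, erythroid and adipocyte sums, whereas the cardiomyocyte, endothelial and atrial sums did not. Single markers called lower at 24 weeks were 3 of 3 tested erythroid, 5 of 7 endothelial and 4 of 10 cardiomyocyte markers. Lower too were 2 of 6 mural and 1 of 6 tested adipocyte markers. Called higher were 3 of 8 fibroblast, 3 of 4 tested atrial, 1 of 8 macrophage and 1 of 6 mural markers. No tested lymphocyte, neutrophil or Schwann cell marker was called. Of all tested genes, limma-trend called 11.1% lower and 11.3% higher (adjusted p under 0.05). The B cell markers Cd79a and Ms4a1 stayed under 10 normalized counts in every library at 24 weeks. At 2 weeks the macrophage markers summed to 4796 to 6648 in Control and 5871 to 14207 in dnOGAh-Tg. The atrial markers summed to 2194 to 22053 in Control and 9157 to 116405 in dnOGAh-Tg. Of the 3 atrial markers tested at that time, Nppa had a log2 change of 3.57, Myl4 of -0.93 and Dkk3 of -0.17. Their changes at 24 weeks were 3.97, 1.91 and 1.91. At 24 weeks 4 atrial markers were tested, and their changes ran from 1.91 to 6.33. The cardiomyocyte markers summed at 2 weeks to 2253473 to 2530114 in Control and 1947048 to 2339922 in dnOGAh-Tg. The part of these shifts in the results below was not tested.

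At 24 weeks 21 of the 30 genes were lower in dnOGAh-Tg and none was higher (limma-trend on log2 normalized counts, Benjamini-Hochberg adjusted p under 0.05 over 14676 tested genes). Over all tested genes, 11.1% were called lower and 11.3% higher. The median log2 change of the 30 genes was -0.53, that of all tested genes 0.00 to 2 decimals, and 27 of the 30 changes were negative against 50.6% of all tested genes. In 15 of the 30 genes every dnOGAh-Tg library lay below every Control library, which was so for 8.19% of all tested genes. All 15 were among the 21 called genes. No member had every dnOGAh-Tg library above every Control library, against 8.49% of all. Mean levels of the called genes in dnOGAh-Tg lay between 41.5% and 80.3% of Control. In whole tissue, fewer cells that express a gene and less of its RNA per cell cannot be told apart.

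**Figure D1:**
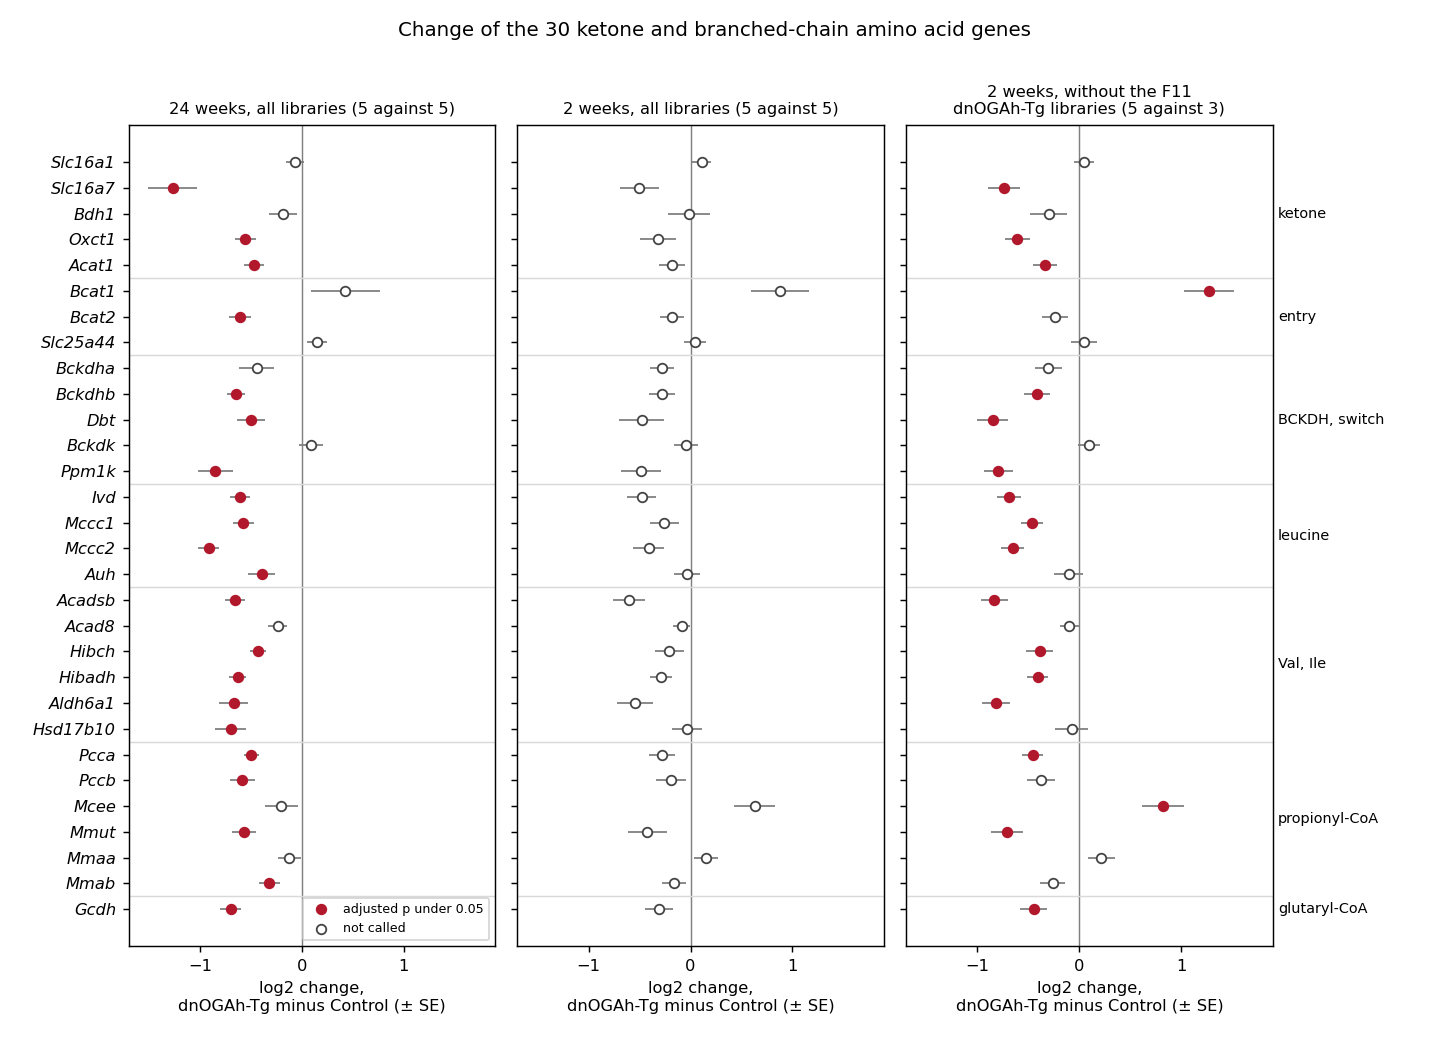
Log2 change of each of the 30 genes, dnOGAh-Tg minus Control, with its standard error, at 24 weeks (left), at 2 weeks with all libraries (middle) and at 2 weeks without the 2 F11 dnOGAh-Tg libraries (right); filled points have an adjusted p under 0.05 and horizontal lines separate the 7 roles. At 24 weeks 21 points are filled, all left of 0; at 2 weeks none is filled with all libraries, and 18 are without the F11 dnOGAh-Tg libraries, of which 16 lie left of 0.

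Per kilobase of exon (union of exons of all annotated transcripts, which understates genes with long, rarely used exons), the most abundant of the 30 in Control at 24 weeks were Oxct1 at 13107, Acat1 at 6335 and Bckdha at 5575 normalized counts per kilobase. Slc16a7 at 22.2 and Bcat1 at 3.43 were the least abundant. Between these ends the genes spread from 153 for Mccc1 to 3261 for Hsd17b10. Control libraries varied by a median coefficient of variation of 12.2% over the 30 genes (4.90% to 27.3%), and dnOGAh-Tg libraries by a median of 11.2%.

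Of the 5 ketone genes, 3 fell at 24 weeks, the transporter Slc16a7 and the mitochondrial enzymes Oxct1 and Acat1. Oxct1 (chr15:4055865-4184826, GRCm39, plus strand), the CoA-transferase that commits ketone bodies to oxidation, was read at 54588, 47490.1, 39392, 51658 and 49414 in the Control libraries and 32682, 31203, 35456, 34719 and 30432 in the dnOGAh-Tg libraries. The groups did not overlap. The mean went from 48509 ± 5741 to 32899 ± 2172 (SD, n = 5), a log2 change of -0.55 ± 0.11 (SE, adjusted p = 0.00244). With quantile normalization the change was -0.29 and its adjusted p 0.0711. Acat1, the mitochondrial thiolase that splits acetoacetyl-CoA, fell by 0.47 on the log2 scale, from 23806 ± 2709 to 17080.1 ± 874 (adjusted p = 0.00392), also without overlap. Slc16a7 (chr10:125055139-125225334, minus strand), the monocarboxylate transporter MCT2, was read at 327, 154, 234, 276 and 323 in the Control libraries and 87.8, 76.5, 115, 169 and 96.6 in the dnOGAh-Tg libraries. Its log2 change of -1.27 ± 0.24 (adjusted p = 0.00237) was the most negative of the 30, although Control 2 lay below dnOGAh-Tg 4. Bdh1 (chr16:31241098-31277719, plus strand), the dehydrogenase that turns beta-hydroxybutyrate into acetoacetate, was read at 9940.0, 10533, 6140.0, 9402 and 8074 in the Control libraries and 8616, 6646, 7963, 7722 and 7288 in the dnOGAh-Tg libraries. The Control libraries spanned the dnOGAh-Tg libraries, and the change of -0.19 ± 0.14 was not called (adjusted p = 0.366). Slc16a1, the transporter MCT1, went from 7806 ± 467 to 7469 ± 833, a change of -0.07 ± 0.09 that was not called (adjusted p = 0.626).

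Of the 3 genes of transamination and mitochondrial entry, only Bcat2 was called at 24 weeks. Bcat2 (chr7:45219577-45239135, plus strand), the mitochondrial branched-chain aminotransferase, was read at 3587, 4654, 3834, 4585 and 4242 in the Control libraries and 3007, 3109, 2539, 2207 and 2885 in the dnOGAh-Tg libraries. Every dnOGAh-Tg library lay below every Control library, and the log2 change was -0.61 ± 0.11 (adjusted p = 0.00183). Slc25a44 (chr3:88317805-88332446, minus strand), the carrier that brings branched-chain amino acids into mitochondria, was read at 752, 658, 905, 673 and 694 in the Control libraries and 831, 723, 875, 783 and 851 in the dnOGAh-Tg libraries. These values overlapped, with Control 3 the highest of the 10, and the change of 0.15 ± 0.10 was not called (adjusted p = 0.33). Bcat1, the cytosolic aminotransferase, was low throughout, from 32.0 ± 8.17 to 46.7 ± 21.5 (log2 change 0.43 ± 0.34, adjusted p = 0.395).

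**Figure D2:**
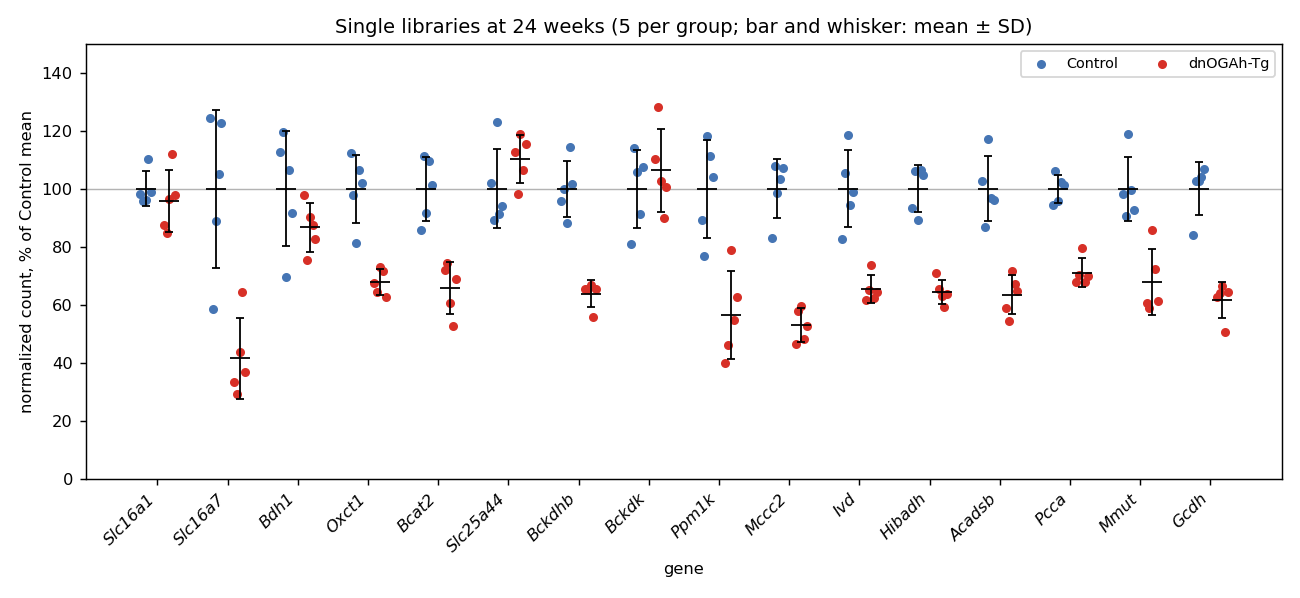
Normalized counts of 16 of the genes in single libraries at 24 weeks, each as a percentage of the Control mean of that gene; black marks are the mean and SD of 5 libraries per group. The dnOGAh-Tg points of Oxct1, Bcat2, Bckdhb, Mccc2, Ivd, Hibadh, Acadsb, Pcca, Mmut and Gcdh lie wholly below the Control points, while those of Slc16a1, Bdh1, Slc25a44 and Bckdk overlap them.

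Within the branched-chain ketoacid dehydrogenase and its switch, 3 of 5 genes fell at 24 weeks: a subunit of the decarboxylase, the transacylase core and the activating phosphatase. Bckdhb (chr9:83807198-84006293, plus strand), the beta subunit of the decarboxylase, was read at 2313, 2414, 2129, 2762 and 2455 in the Control libraries and 1583, 1583, 1616, 1342 and 1577 in the dnOGAh-Tg libraries. It fell without overlap by 0.65 on the log2 scale (SE 0.09, adjusted p = 0.000248). Ppm1k (chr6:57483487-57512453, minus strand), the phosphatase that activates the complex, was read at 2516, 2163, 3329, 3137 and 2932 in the Control libraries and 1123, 1297, 2220.0, 1540.0 and 1762 in the dnOGAh-Tg libraries. dnOGAh-Tg 3 lay just above Control 2, and the other 4 dnOGAh-Tg libraries lay below every Control library. The log2 change was -0.85 ± 0.17 (adjusted p = 0.00376). Bckdk (chr7:127503254-127509393, plus strand), the kinase that inactivates the complex, was read at 2809, 3965, 3681, 3176 and 3739 in the Control libraries and 3832, 4459.8, 3565, 3122 and 3499 in the dnOGAh-Tg libraries. Here the groups overlapped, the highest value being in dnOGAh-Tg 2 and the lowest in Control 1, and the change of 0.09 ± 0.12 was not called (adjusted p = 0.62). Dbt, the transacylase core, fell by 0.50 (adjusted p = 0.0175), from 2309 ± 374 to 1639.8 ± 308. Its call ended at the threshold of 0.01, without dnOGAh-Tg 1 (adjusted p = 0.0521) and with all 20 libraries in one fit (0.0769). Bckdha, the alpha subunit of the decarboxylase, had a change of -0.44 ± 0.17 that was not called (adjusted p = 0.0852). Without Control 1 its adjusted p was 0.0414, without dnOGAh-Tg 2 it was 0.0241, with the title code as a block 0.0194, and with all 20 libraries in one fit 0.0466.

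The leucine arm was lower at 24 weeks in all 4 of its genes. Mccc2 (chr13:100085038-100152147, minus strand), the beta subunit of methylcrotonyl-CoA carboxylase, was read at 1868, 2423, 2217, 2328 and 2408 in the Control libraries and 1045, 1302, 1343, 1084 and 1187 in the dnOGAh-Tg libraries. Its log2 change of -0.92 ± 0.10 had the smallest adjusted p of the 30 (5.08e-05), and the highest dnOGAh-Tg library lay well below the lowest Control library. Mccc1, the alpha subunit that carries biotin, fell by 0.57 (adjusted p = 0.00129), from 1679 ± 115 to 1133 ± 151. Ivd (chr2:118692435-118713390, plus strand), the isovaleryl-CoA dehydrogenase that opens the arm, was read at 8821, 11237, 12649, 10041 and 10519 in the Control libraries and 6566, 6932, 7834, 6635 and 6867 in the dnOGAh-Tg libraries. Its groups did not overlap and its change was -0.61 ± 0.10 (adjusted p = 0.000951). Auh, the hydratase that follows the carboxylase, fell by 0.39 with an adjusted p of 0.0486. The groups of Auh overlapped, and its call ended in 12 of the alternatives, with an adjusted p of up to 0.112, among them the threshold of 0.01 and leaving out any 1 library except Control 1 and dnOGAh-Tg 2.

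In the valine and isoleucine arms 5 of 6 genes fell. Hibadh (chr6:52523213-52617374, minus strand), the hydroxyisobutyrate dehydrogenase of valine breakdown, was read at 8932, 10126, 8511, 10163 and 10017 in the Control libraries and 6776, 6234, 6020.2, 5669.7 and 6086 in the dnOGAh-Tg libraries. Its change was -0.63 ± 0.08 (adjusted p = 0.000194), without overlap. Acadsb (chr7:131012330-131050673, plus strand), the acyl-CoA dehydrogenase of the isoleucine arm, was read at 5057, 4279.9, 5775, 4766 and 4730.3 in the Control libraries and 2899.6, 2684, 3520.3, 3313 and 3182 in the dnOGAh-Tg libraries. It too fell without overlap, by 0.66 (SE 0.10, adjusted p = 0.00054). Hibch, the hydrolase that releases hydroxyisobutyrate from CoA, fell by 0.43 (adjusted p = 0.00169), and Aldh6a1, which makes propionyl-CoA from methylmalonate semialdehyde, by 0.67 (adjusted p = 0.00467). Hsd17b10, a dehydrogenase of the isoleucine arm that is also a subunit of mitochondrial RNase P, fell by 0.70 (adjusted p = 0.00533). Its groups overlapped, since dnOGAh-Tg 2 at 3505 lay above Control 1 and Control 3 at 3480.2 and 3482. Acad8, the isobutyryl-CoA dehydrogenase of the valine arm, went from 1753 ± 196 to 1480.0 ± 75.3, a change of -0.24 (adjusted p = 0.0752) that was not called. DESeq2 on the recovered reads gave 0.0427 for Acad8, the title code as a block 0.0464, and all 20 libraries in one fit 0.0389.

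Propionyl-CoA is the common product of the valine and isoleucine arms, and 4 of the 6 genes that carry it to succinyl-CoA fell at 24 weeks. Pcca (chr14:122771736-123128512, plus strand), the biotin-carrying subunit of propionyl-CoA carboxylase, was read at 2888, 3250.1, 2934, 3141 and 3103 in the Control libraries and 2078, 2149, 2439.8, 2075 and 2139 in the dnOGAh-Tg libraries. The Control values were narrow and the groups did not overlap, with a change of -0.49 ± 0.08 (adjusted p = 0.000533). Pccb, the other subunit, fell by 0.58 (adjusted p = 0.00384). Mmut (chr17:41245576-41272879, plus strand), the cobalamin-dependent methylmalonyl-CoA mutase, was read at 5720.5, 5279, 6914, 5792 and 5400.1 in the Control libraries and 3535, 3430.5, 4992, 4205 and 3565 in the dnOGAh-Tg libraries. Its highest dnOGAh-Tg library, 3, was still below the lowest Control library, and the change was -0.57 ± 0.12 (adjusted p = 0.00361). Mmab, which makes the adenosyl form of the cofactor, fell by 0.32 with an adjusted p of 0.0403. That call ended at the threshold of 0.01, with quantile normalization (0.0595) and without any 1 of Control 2 (0.0872), Control 3 (0.0690), Control 5 (0.0995), dnOGAh-Tg 1 (0.0805), dnOGAh-Tg 4 (0.0792) and dnOGAh-Tg 5 (0.0684). Mmaa, which helps load the cofactor, had a change of -0.12 (adjusted p = 0.465) and Mcee, the methylmalonyl-CoA epimerase, of -0.20 (adjusted p = 0.411). Neither was called.

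Gcdh (chr8:85613022-85620550, minus strand), the glutaryl-CoA dehydrogenase of lysine and tryptophan breakdown, was read at 1404, 1719, 1717, 1738 and 1784 in the Control libraries and 1046, 1074, 1109, 845 and 1075 in the dnOGAh-Tg libraries. All dnOGAh-Tg values lay below the Control values, the change being -0.70 ± 0.10 (adjusted p = 0.000307).

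Genes described together were also compared as the ratio of 2 genes within each library. For each ratio 1 was first added to both normalized counts. The size factor therefore cancels almost wholly for abundant genes and less fully for a low gene such as Bcat1. The 11 ratios at the 2 times gave 22 exact two-sided permutation tests, of which 0 passed an adjusted p of 0.05; the lowest adjusted p was 0.0698. Without adjustment, 6 ratios at 24 weeks and 3 at 2 weeks had p under 0.05, and the smallest p that 5 libraries against 5 allow is 0.00794. Kinase over phosphatase, Bckdk/Ppm1k, was 1.12, 1.83, 1.11, 1.01 and 1.27 in the Control libraries and 3.41, 3.44, 1.61, 2.03 and 1.99 in the dnOGAh-Tg libraries at 24 weeks (log2 difference 0.94, unadjusted p = 0.0159, adjusted p = 0.0698, exact test). Only Control 2 lay among the dnOGAh-Tg values. For MCT1 over MCT2, Slc16a1/Slc16a7, the ratios were 23.4, 48.4, 32.0, 31.1 and 23.9 in Control and 77.0, 85.3, 65.1, 51.2 and 78.3 in dnOGAh-Tg (log2 difference 1.199, unadjusted p = 0.00794, adjusted p = 0.0698, exact test). That was the 1 ratio whose groups did not overlap at 24 weeks. Mccc1/Mccc2 averaged 0.751 ± 0.0668 in Control and 0.953 ± 0.0930 in dnOGAh-Tg (exact unadjusted p = 0.0159, n = 5), and Bdh1/Oxct1 0.181 ± 0.0255 and 0.233 ± 0.0198 (exact unadjusted p = 0.0159, n = 5). Bcat2/Slc25a44 averaged 5.79 ± 1.25 in Control and 3.40 ± 0.5998 in dnOGAh-Tg, with the same unadjusted p in the exact test. The remaining ratio under 0.05 at 24 weeks was Bcat1/Bcat2 (exact unadjusted p = 0.0317), and the 2-week ones were, by the same exact test, Bcat1/Bcat2 (0.0238), Slc16a1/Slc16a7 (0.0317) and Bdh1/Oxct1 (0.0476). Without the 2 F11 dnOGAh-Tg libraries 10 of the 22 tests passed, and without dnOGAh-Tg 1 or dnOGAh-Tg 2 of the 2-week group 7 passed in each case. Of these, 5, 2 and 2 were 2-week ratios. The other 5 each time were 24-week ratios, whose values and unadjusted p were the same as before and which passed because the adjustment over the 22 tests changed. Bckdk/Ppm1k was among the 2-week ratios that passed when both were left out (log2 difference 0.89, exact test, adjusted p = 0.0393).

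**Figure D3:**
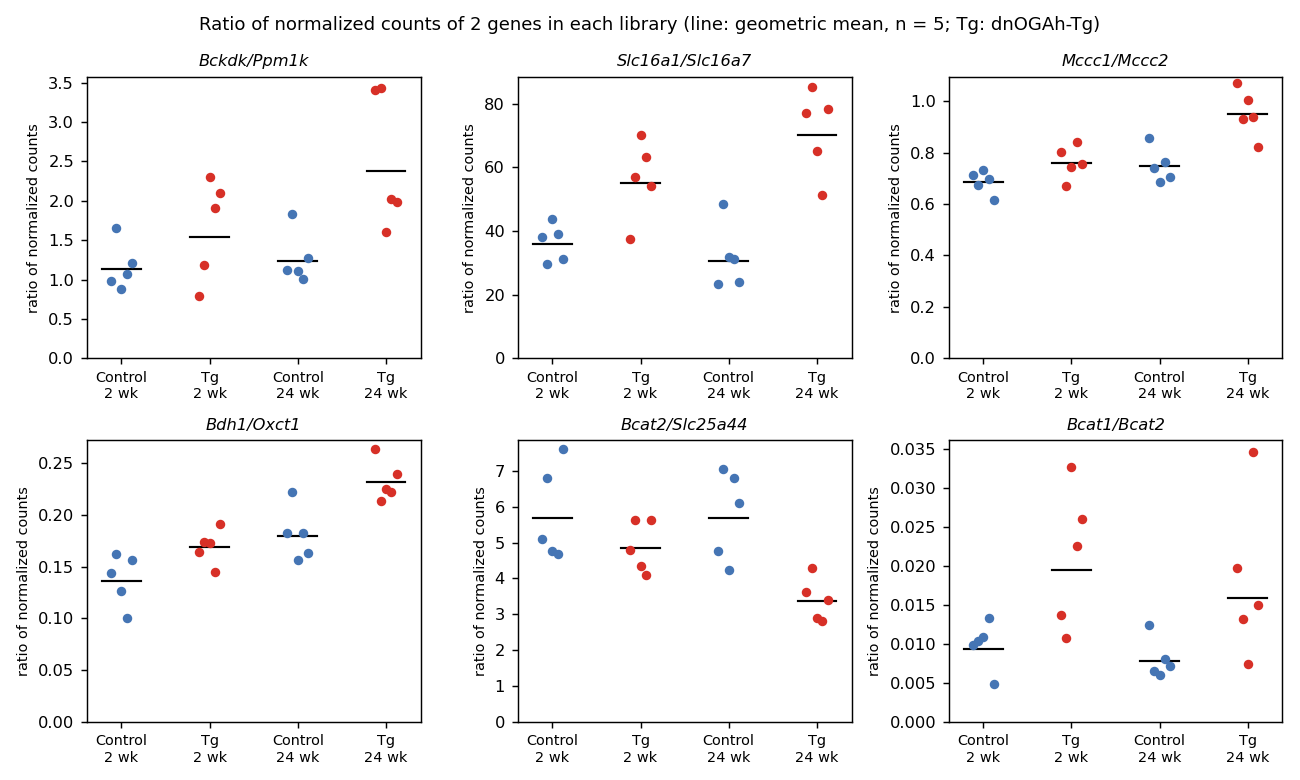
Ratio of the normalized counts of 2 genes, each plus 1, in each library, for 6 of the 11 ratios. Points are single libraries of Control (blue) and dnOGAh-Tg (red) at 2 and 24 weeks, and lines are geometric means of 5. At 24 weeks the Slc16a1/Slc16a7 points of dnOGAh-Tg (51.2 to 85.3) lie above all Control points (23.4 to 48.4), and 2 Bckdk/Ppm1k points of dnOGAh-Tg lie above 3.

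At 2 weeks none of the 30 genes was called in either direction by limma-trend with all 10 libraries, as for all 14584 tested genes (0% called). edgeR on the recovered reads also called 0, and DESeq2 called Acadsb lower and Bcat1 higher, with 1.67% of all tested genes called lower and 4.16% higher. At an unadjusted p under 0.05, 13 of the 30 were lower and 2, Bcat1 and Mcee, were higher, beside 12% and 12.3% of all tested genes. The median log2 change was -0.23 and 25 of the 30 changes were negative, beside a median of -0.02 and 52.5% over all tested genes. No member had groups that did not overlap at 2 weeks, when 1.96% of all tested genes were lower and 1.19% higher in every dnOGAh-Tg library.

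The dnOGAh-Tg libraries of that time were not alike. The median deviation of the 30 genes from the Control mean was -0.04 and 0.01 on the log2 scale in the 2 F11 libraries and -0.28, -0.35 and -0.42 in the F13 and F14 libraries. At 24 weeks the 5 dnOGAh-Tg libraries ran from -0.57 to -0.39. Within F11, 2 Control and 2 dnOGAh-Tg libraries, the median change over the 30 genes was 0.04 and 11 were negative, beside 52.1% of all tested genes. Within F14, 3 Control and 2 dnOGAh-Tg libraries, it was -0.44 and 24 were negative, beside 51.1%. The 3 F13 and F14 dnOGAh-Tg libraries lay below every Control library for 18 of the 30 genes and above every one for 1, Bcat1, where 18% and 15.1% of all tested genes did so.

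**Figure D4:**
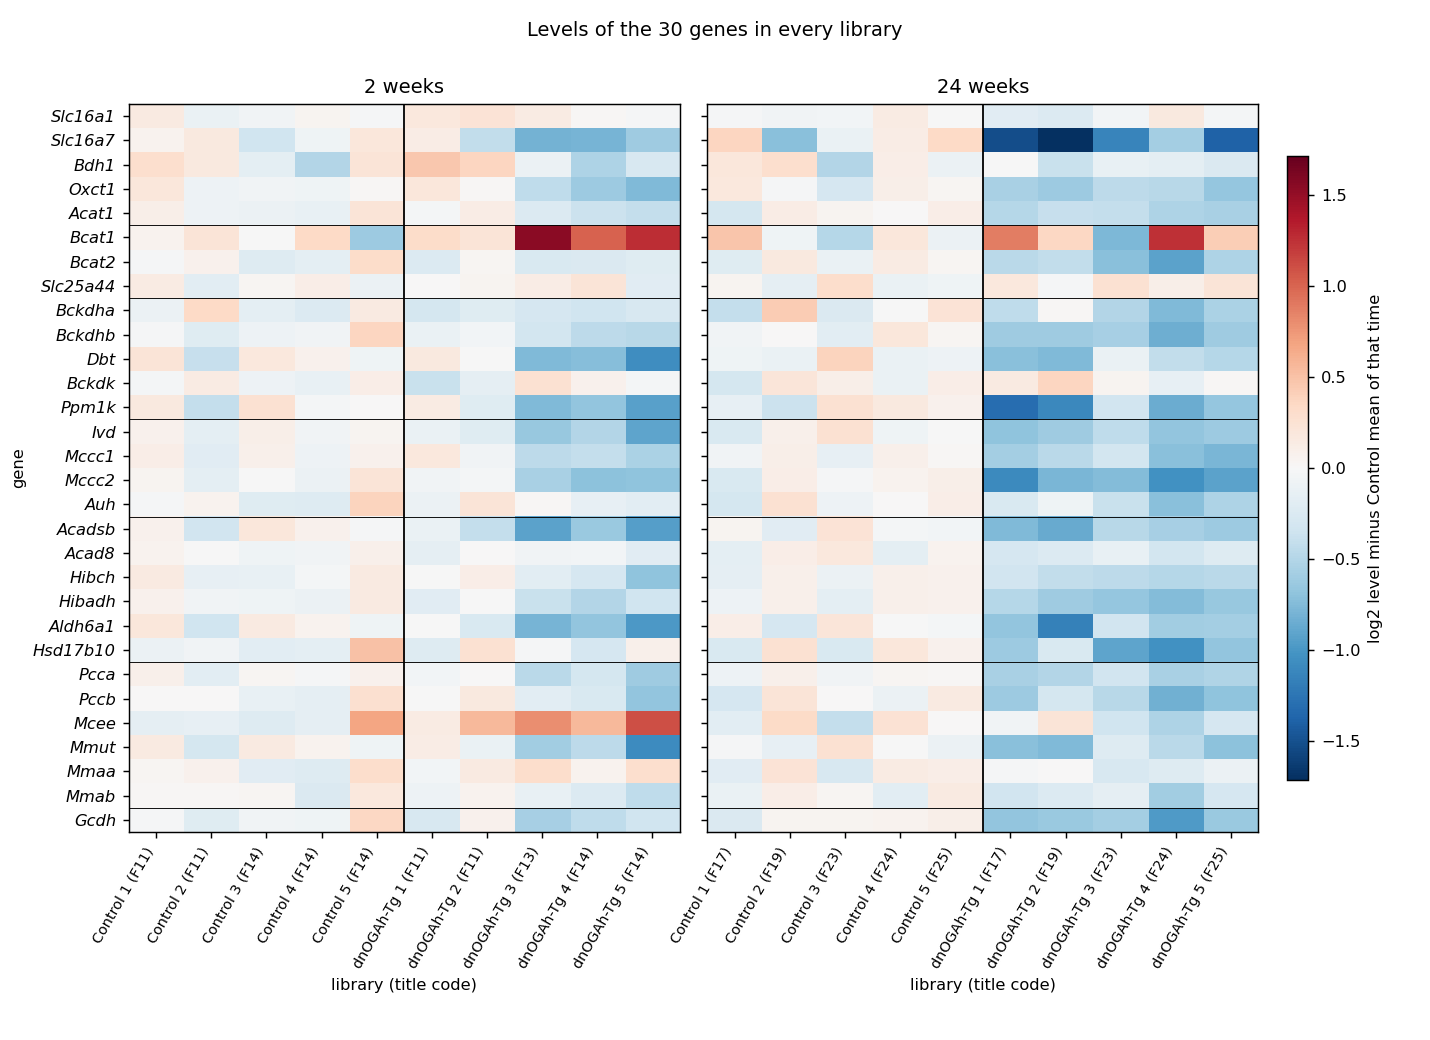
Log2 level of each of the 30 genes in every library minus the Control mean of that time, with replicate number and title code under each column; blue is below and red above the Control mean. At 2 weeks the columns dnOGAh-Tg 1 and 2 (F11) have medians of -0.04 and 0.01 and the other 3 dnOGAh-Tg columns medians of -0.28 to -0.42, while all 5 dnOGAh-Tg columns at 24 weeks have medians of -0.39 or lower.

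Without the 2 F11 dnOGAh-Tg libraries, a choice made with these results known, 16 of the 30 genes were lower and 2 higher at 2 weeks (limma-trend adjusted p under 0.05, 3 against 5 libraries), when 17.9% of all tested genes were called lower and 16.2% higher. All 16 were also called lower at 24 weeks, and 5 genes called at 24 weeks were not among them. The share of all tested genes called lower in both was not counted, so this overlap cannot be set against it. Without all F11 libraries 14 were lower and 1 higher (11.7% and 11% of all), and without dnOGAh-Tg 1 alone 9 and 2 (11.9% and 11.4%). Without dnOGAh-Tg 2 alone, the other F11 dnOGAh-Tg library, 0 of all 14464 tested genes were called in either direction. Without Control 5, 1 gene, Mcee, was called higher and none lower (2.76% of all higher, 0.331% lower). Under the same omission of the F11 dnOGAh-Tg libraries, 6 of 8 macrophage markers, 2 of 8 fibroblast markers and 1 of 3 tested atrial markers were called higher, as was the 1 neutrophil marker tested. In the same fit 3 of 7 endothelial, 1 of 6 mural and 4 of 10 cardiomyocyte markers were called lower, the cardiomyocyte list having 5 negative changes and a median of -0.04. None of the tested erythroid, adipocyte and Schwann cell markers was called. The part of these markers in the counts was not tested.

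Acadsb had the smallest p of the 30 at 2 weeks, and was read at 6519, 4956, 7110.4, 6549 and 6146 in the Control libraries and 5739, 4679, 3299.6, 3976 and 3235 in the dnOGAh-Tg libraries. dnOGAh-Tg 1 lay among the Control values, dnOGAh-Tg 2 just below them and the other 3 dnOGAh-Tg libraries further down. The change was -0.60 ± 0.16 with all libraries (adjusted p = 0.118) and -0.83 without F11 dnOGAh-Tg (adjusted p = 0.00141). Oxct1 was read at 49418, 40477, 41138, 41028 and 43697 in the Control libraries and 49239, 43475, 31725, 27943 and 25429.7 in the dnOGAh-Tg libraries. For it, both F11 dnOGAh-Tg libraries lay within the Control range and the other 3 below it, so that the change within F11 was 0.05 and within F14 -0.65. With all libraries it was -0.32 (adjusted p = 0.264), and without F11 dnOGAh-Tg -0.61 (adjusted p = 0.00455). Dbt, at 3480.3, 2260.1, 3363, 3133 and 2834 in the Control libraries and 3332, 2969, 1765, 1797 and 1423 in the dnOGAh-Tg libraries, had the same arrangement, with 0.17 within F11 and -0.96 within F14. Ppm1k was read at 3887, 2586, 4153, 3358 and 3479 in the Control libraries and 3804, 2975, 2034, 2148 and 1807 in the dnOGAh-Tg libraries. Its changes were 0.09 within F11, -0.89 within F14 and -0.49 over all libraries (adjusted p = 0.166). Bckdk, at 3816, 4284, 3663, 3586 and 4218 in the Control libraries and 2999.8, 3520.3, 4683, 4099 and 3804 in the dnOGAh-Tg libraries, was lowest in the 2 F11 dnOGAh-Tg libraries and highest in the F13 library, with a change of -0.05 (adjusted p = 0.821) overall.

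Besides Acadsb and Oxct1, the genes lower without the F11 dnOGAh-Tg libraries were Slc16a7, Acat1, Bckdhb, Dbt, Ppm1k, Ivd, Mccc1, Mccc2, Hibch, Hibadh, Aldh6a1, Pcca, Mmut and Gcdh, with log2 changes from -0.34 for Acat1 to -0.85 for Dbt. By role the 16 were 3 of the 5 ketone genes, none of the 3 entry genes, 3 of 5 for the dehydrogenase and its switch, 3 of 4 in the leucine arm, 4 of 6 in the valine and isoleucine arms, 2 of 6 from propionyl-CoA and Gcdh. Ivd was read at 14971, 12699.5, 15196, 13669 and 14704 in the Control libraries and 13105, 12259, 9025, 10066 and 7569 in the dnOGAh-Tg libraries, with its 3 lowest values in the F13 and F14 dnOGAh-Tg libraries.

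Bcat1 and Mcee ran the other way at 2 weeks. Bcat1 was read at 43.7, 49.1, 41.8, 53.6 and 26.9 in the Control libraries and 52.6, 49.2, 124, 85.9 and 103 in the dnOGAh-Tg libraries. All dnOGAh-Tg values but those of F11 lay above the Control range, and the change was 0.87 ± 0.28 overall (adjusted p = 0.132), 0.13 within F11, 1.24 within F14 and 1.28 without F11 dnOGAh-Tg (adjusted p = 0.00394). Mcee was read at 1347, 1356, 1278, 1342 and 2394 in the Control libraries and 1645, 2194, 2602, 2200.3 and 3234 in the dnOGAh-Tg libraries. Control 5 lay among the dnOGAh-Tg values and the other 4 Control libraries below all of them, so Mcee was higher within F11 (0.49) as well as within F14 (0.74). Over all libraries its change was 0.63 ± 0.20 (adjusted p = 0.129), and without F11 dnOGAh-Tg 0.82 (adjusted p = 0.0117).

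Whether the change differed between 24 and 2 weeks was tested as a contrast of both changes, fitted jointly on the 14339 genes that passed the filter in each table. None of the 30 genes passed (limma-trend adjusted p under 0.05), beside 1.76% of all tested genes, and edgeR and DESeq2 called none either. The difference was negative, that is the change was lower at 24 weeks, for 28 of the 30 and for 49.3% of all tested genes, with a median of -0.25. At an unadjusted p under 0.05, 8 were negative and 0 positive, beside 8.04% and 7.4% of all. Mcee had the most negative difference, -0.83 (adjusted p = 0.133), its change being 0.63 at 2 weeks and -0.20 at 24 weeks. Slc16a7 (-0.77, adjusted p = 0.25), Hsd17b10 (-0.66, adjusted p = 0.14) and Mccc2 (-0.51, adjusted p = 0.177) followed. Without Control 5 of the 2-week group, Mcee and Hsd17b10 passed (adjusted p = 0.0213 and 0.0296), as did 4.78% of all tested genes. Without the F11 dnOGAh-Tg libraries the difference turned positive for Bdh1, Oxct1, Dbt, Ivd, Acadsb, Aldh6a1 and Mmut, none of them called in either fit.

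Genes around the pathway were read from 6 lists with 76 entries, chosen by function with earlier results of these data known, of which 67 were tested at 24 weeks. Of these, 17 were lower and 6 higher, with a median change of -0.13. Over all tested genes 11.1% were called lower and 11.3% higher, and these shares also stand beside the counts of each list below. Slc7a5, the large neutral amino acid transporter through which branched-chain amino acids enter cells, was read at 259, 217, 255, 255 and 220.3 in the Control libraries and 954, 698, 717, 750.5 and 659 in the dnOGAh-Tg libraries. Each dnOGAh-Tg library held more than 2 times the highest Control library, with a log2 change of 1.64 ± 0.11 (adjusted p = 1.92e-06). It was the only one of 11 tested uptake and leucine-sensing genes to be called, and its change was also larger at 24 than at 2 weeks (difference 0.94, adjusted p = 0.0137). Slc7a7 (0.53, adjusted p = 0.0812), Slc7a8 (0.30, adjusted p = 0.121) and Slc3a2, the heavy chain that partners Slc7a5 (0.34, adjusted p = 0.145), were not called, although Slc7a7 passed under 3 of the alternatives.

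Of 8 tested other ketone genes, Slc16a3, the transporter MCT4 best known for lactate export, was higher. Slc16a3 was read at 86.3, 46.8, 77.0, 90.7 and 49.4 in the Control libraries and 232, 154, 133, 219.9 and 251 in the dnOGAh-Tg libraries, without overlap and with a log2 change of 1.497 (adjusted p = 0.000695). Slc16a6 (0.52, adjusted p = 0.0527) and Bsg, the chaperone of these transporters (-0.39, adjusted p = 0.0784), were not called, but passed under 7 and 4 of the alternatives.

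Among 7 other steps of branched-chain amino acid breakdown 5 fell, with a list median of -0.63. Dld, the dihydrolipoamide dehydrogenase shared by the ketoacid dehydrogenases, was read at 16089, 17164, 16212, 17205 and 17607 in the Control libraries and 10499, 10098, 12173, 11388 and 10365 in the dnOGAh-Tg libraries, and fell by 0.63 without overlap (adjusted p = 0.000151). Acsf3, the mitochondrial malonyl-CoA and methylmalonyl-CoA synthetase, had a change of -0.86 (adjusted p = 4.56e-05), and Hadha and Acaa2, enzymes shared with fatty acid oxidation, of -0.91 (adjusted p = 0.000516) and -0.91 (adjusted p = 0.000527). Echs1, the enoyl-CoA hydratase, was the fifth at -0.63 (adjusted p = 0.00114), and Abat, the GABA transaminase, was higher at 0.83 (adjusted p = 0.00747); these were named after their values were seen. In the lysine and tryptophan arm, 7 genes tested, Dlst was lower (-0.40, adjusted p = 0.00481) and Sugct, which activates glutarate, was higher at 52.2, 45.8, 41.6, 49.7 and 50.6 in the Control libraries and 139, 109, 83.6, 83.4 and 107 in the dnOGAh-Tg libraries (1.08, adjusted p = 0.000652). With quantile normalization Dlst was not called (adjusted p = 0.276). Aass (1.38, adjusted p = 0.0577), which passed under 7 alternatives, and Dhtkd1 (-0.58, adjusted p = 0.133) were not called.

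Electrons from Ivd, Acadsb, Acad8 and Gcdh pass to the electron transfer flavoprotein. Its subunit gene Etfa was lower at 24 weeks (28810.1 ± 2815 to 15223 ± 577, -0.92, adjusted p = 1.93e-05), as was its oxidoreductase Etfdh (23463 ± 2248 to 13733 ± 427, -0.77, adjusted p = 6.36e-05). Of the 22 genes of cofactor supply and electron acceptors 5 were lower and 1 was higher (11.1% and 11.3% of all tested genes). Slc5a6, a transporter of biotin and pantothenate, was lower (-0.69, adjusted p = 0.00265) and Abcd4, needed for cobalamin export from lysosomes, higher (0.53, adjusted p = 0.00437). The other 2 lower genes, Etfb (-0.89, adjusted p = 0.0157) and the thiamine transporter gene Slc19a2 (-0.39, adjusted p = 0.0308), were named after their values were seen, and the call of Slc19a2 ended without any 1 of 5 libraries, with an adjusted p of up to 0.0768.

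Of 12 transcriptional regulators 5 were lower and 1 higher (11.1% and 11.3% of all tested genes). Klf15, known in mouse heart as an activator of branched-chain amino acid catabolic genes, was read at 1185, 976, 1054, 1106 and 1249.7 in the Control libraries and 898, 906, 1139, 985 and 808 in the dnOGAh-Tg libraries. These overlapped, and the change of -0.24 ± 0.11 was not called (adjusted p = 0.126; 0.0465 without dnOGAh-Tg 3). Ppargc1a, a coactivator of mitochondrial genes, went from 2486 ± 197 to 1384 ± 296 (-0.87, adjusted p = 0.000516). Rxrg (-0.73, adjusted p = 0.000548) and Srebf1 (-0.35, adjusted p = 0.00732) were lower, and Esrrb was higher (0.35, adjusted p = 0.0137).

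The shift of the 30 genes was not set apart from related mitochondrial pathways by any test made here. At 24 weeks 14 of 17 genes of fatty acid beta-oxidation were lower and none higher, with a median of -0.63, and 16 of 18 genes of the TCA cycle were lower and none higher, with a median of -0.50. The 30 genes, by comparison, had 21 lower and a median of -0.53. At 2 weeks the medians were -0.27 for beta-oxidation, -0.17 for the TCA cycle and -0.23 for the 30 genes, with 0 called in each. Without the F11 dnOGAh-Tg libraries 10 of 17 beta-oxidation genes were lower (median -0.48), 8 of 18 TCA cycle genes (median -0.20) and 16 of the 30 (median -0.38). Over all tested genes 11.1% were called lower and 11.3% higher at 24 weeks. In the 2-week fit without the F11 dnOGAh-Tg libraries the share called lower was 17.9%.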

How the data were processed

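Left ventricle RNA was extracted with a column kit for fibrous tissue, per the labels' protocols. The submitters' processing notes give the build GRCm39 and list STAR 2.7.3a, cutadapt 2.6, Trim Galore 0.6.6, DESeq2 without a version and R 4.0.3, with no role or order. No source used here names the read counter, its annotation or strand setting, so overlapping genes on opposite strands are not told apart. The authors deposited a table for each time, and its values are a signal, read counts divided by 1 size factor per library; 100% of values above 0 were whole multiples of a column's step within 0.01 of a read, so reads were recovered by division. The tables were normalized separately, so tests were made within each and no level was compared across them.

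The log2 of each value plus 1 was taken, and genes with at least 10 in at least 5 of 10 libraries were tested with limma-trend in R 4.3.3 (limma 3.58.1, two-sided), and p-values were adjusted by Benjamini-Hochberg over all of them (14676 at 24 weeks, 14584 at 2 weeks). Log2 changes are on this scale, which understates changes of low genes. Ratios were tested by exact permutation. Alternatives were pseudocounts of 0.5 and 5, no filter, a filter of 50, TMM rescaling, quantile normalization, robust moderation, a replicate block, a title-code block, a joint fit of all 20 libraries, DESeq2 1.42.0 and edgeR 4.0.16 run on recovered reads, a threshold of 0.01, and omission of each library and of the F11 libraries. The procedure was tested on simulated data. Exon lengths came from GENCODE annotation of GRCm38, matched by gene identifier for all 30 genes, and promoters from RefSeq, GRCm38.p6, matched by gene identifier.

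The 30 genes, the lists around them, the markers and the alternatives were chosen with earlier results of these data known. All 30 are named, ordered by role; single-library values at 24 weeks are given for Bdh1, Oxct1, Bckdk, Ppm1k, Gcdh and the 2 genes of each role with the smallest p, and of each further list Klf15, Dld, Slc7a5 and up to 4 genes with the smallest p are named, except that 1 gene is not reported here. Single-library values at 2 weeks are given for genes chosen after their values were seen.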

Additional observations from a re-analysis of the deposited data

Results flagged for a closer look

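Among 120 groups of 5 libraries (30 genes, 4 groups), 11 held a library whose gap to the nearest other library was over 0.71 of the group's range; chance alone marks about 1 in 20 groups. At 24 weeks in Control, Slc16a1 was high in Control 4 (8622, others 7489 to 7729), Dbt was high in Control 3 (2976, others 2121 to 2176) and Gcdh was low in Control 1 (1404, others 1717 to 1784). In dnOGAh-Tg at 24 weeks, library 4 was low for Bckdhb (1342, others 1577 to 1616) and for Gcdh (845, others 1046 to 1109). Library 3 of that group was high for Ivd (7834, others 6566 to 6932) and for Pcca (2439.8, others 2075 to 2149). At 2 weeks, Control 5 was high for Bckdhb (3143, others 2104 to 2387), Hsd17b10 (5655, others 3507 to 3818) and Mcee (2394, others 1278 to 1356). Control 5 held the highest of the 5 Control values for 15 of the 30 genes. Bcat2 was high in dnOGAh-Tg 2 at 2 weeks (4697, others 3824 to 3995).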

How the results depend on the processing

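At 24 weeks between 18 and 23 of the 30 genes were called lower and 0 higher under every alternative, 18 to 22 when each library was left out in turn. At 2 weeks the count of lower genes, 0 with all libraries, was 1 with DESeq2, 2 with all 20 libraries in one fit, 16 without the F11 dnOGAh-Tg libraries, 14 without all F11 libraries and 0 to 9 when each library was left out. The count of higher genes was 1 with DESeq2, 1 with the replicate block, 1 with all 20 libraries in one fit, 2 without F11 dnOGAh-Tg, 1 without all F11 libraries and 0 to 2 when each library was left out. With the title-code block 0 of all 14584 tested genes were called in either direction at 2 weeks. Over all 14339 genes tested in one fit of the 20 libraries, 485 were called lower and 672 higher at 2 weeks. The replicate block called 202 of all 14584 tested genes higher at 2 weeks. The difference between times was called lower for 1 gene (Mcee) with the replicate block and for 0 to 2 when each library was left out. With that block 222 of all 14339 tested genes had a difference called lower. Pair ratios called numbered 10 without F11 dnOGAh-Tg and 0 to 7 when each library was left out. Partner genes called higher at 24 weeks numbered 10 of 67 with the replicate block. That block called 1919 of all 14676 tested genes higher at 24 weeks.

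Replicate numbers recur in both groups. Correlations of the deviations of same-numbered libraries ran from -0.21 to 0.38 at 2 weeks and from -0.15 to 0.52 at 24 weeks. At these times 1 of 5 and 2 of 5 Control libraries matched their own number best. With 5 libraries per group this cannot settle whether the numbers are pairs, and the main tests did not pair them. At 24 weeks the libraries of each number also share a title code, whose meaning the labels do not give. With the replicate block 23 genes were lower at 24 weeks, Bckdha (adjusted p = 0.0194) and Acad8 (0.0464) being added, and Mcee was higher at 2 weeks (0.045). Calls also rose over all 14676 genes tested at 24 weeks, from 1634 lower without the block to 2002 lower with it.

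Signs turned for 42 of 2665 single values, none of them called. Slc16a1 at 24 weeks was 0.0463 with quantile normalization. Bdh1 at 2 weeks was 0.0154 with quantile normalization, 0.0234 with edgeR, 0.0125 with DESeq2, and -0.14 to 0.12 when each library was left out. Bckdk at 2 weeks was 0.10 without F11 dnOGAh-Tg, 0.13 without all F11 libraries and -0.12 to 0.0368 when each library was left out. The same ranges were -0.0028 to 0.10 for Slc25a44, -0.10 to 0.0557 for Auh and -0.11 to 0.0916 for Hsd17b10. The difference between times without F11 dnOGAh-Tg was 0.11 for Bdh1, 0.0531 for Oxct1, 0.35 for Dbt, -0.0084 for Bckdk, 0.0823 for Ivd, 0.18 for Acadsb, 0.15 for Aldh6a1 and 0.14 for Mmut, and with each library left out -0.17 to 0.14 for Dbt, -0.14 to 0.0694 for Acadsb and -0.23 to 0.0092 for Aldh6a1. Bckdha/Bckdhb at 2 weeks was 0.11 without F11 dnOGAh-Tg and -0.0573 to 0.13 when each library was left out, and Oxct1/Acat1 at 24 weeks -0.17 to 0.0386. The cause was not tested. Of the other single values 2529 kept their side of the threshold, 70 gained a call and 24 lost one. The lowest gene, Bcat1, was read at 17.9 to 75.3 normalized counts at 24 weeks, and its standard error of 0.34 was the largest of the 30.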
